A study of Mus musculus with 14 samples.

Results

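The costimulatory and TNF receptor family genes measured here are 8 receptors of regulatory T cells (Tregs): Icos and Cd28 of the CD28 family, and Tnfrsf18 (the receptor GITR), Tnfrsf4 (OX40), Tnfrsf9 (4-1BB), Tnfrsf1b (TNFR2), Tnfrsf25 (DR3) and Cd27 of the TNF receptor superfamily. The genes were chosen by symbol, with earlier results of these data known. Each of the 8 was matched by 1 transcript cluster, the set of probes that reads 1 gene on the Clariom S mouse array. In all, 22203 transcript clusters with 21902 symbols were tested. The arrays came from mixed bone marrow chimeras, in which sublethally irradiated Rag1-/- hosts received CD45.2+ marrow from Foxp3-Cre donors mixed with an equal part of CD45.1+ wild-type marrow, and blood cells regrew for 6 to 8 weeks. Control donors were Atg14+/fl and knockout (KO) donors were Atg14 fl/fl, so that both carried Foxp3-Cre, which deletes DNA flanked by loxP sites in Foxp3-expressing cells, and both carried at least 1 flanked allele of Atg14, which encodes a component of the autophagy-initiating complex of Vps34. From the CD45.2+ CD4+ Foxp3-YFP+ cells, central Tregs (cTregs, CD44 low) and effector Tregs (eTregs, CD44 high) were sorted, which gave 4 arrays of control cTregs, 4 of control eTregs, 3 of KO cTregs and 3 of KO eTregs. The tissue was the spleen according to the study's methods, and spleen with peripheral lymph nodes according to the series. The mice were on the C57BL/6 background, and animals of both sexes were used in the study. In some experiments the study also used Atg14 fl/fl mice that had an Atg14+/- or Atg14-/- allele. Whether donors of these arrays did is not given. The study describes 4 control and 3 KO chimeras as the source of both subsets, the same numbers as the arrays of each group. Which array came from which animal is not given in the sources used here. Its methods give an age range for Foxp3-Cre Atg14 fl/fl mice in general, but no ages for the animals of these arrays. P values measure the spread between arrays.

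A T cell needs a signal from its antigen receptor and a second one from costimulatory receptors. CD28 and ICOS bind ligands of the B7 family and engage phosphatidylinositol-3-kinase, whereas the TNF receptor family members bind trimeric TNF family ligands and recruit TRAF adaptors that lead to NF-kB. Tregs are known for their high surface levels of GITR, OX40 and TNFR2, and ICOS is widely used as a mark of activated, effector Tregs.

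By RefSeq (assembly GRCm38.p6), 5 of the 8 genes lie on chromosome 4 (Tnfrsf18, Tnfrsf4, Tnfrsf9, Tnfrsf1b and Tnfrsf25). No protein-coding gene was listed between Tnfrsf4 and Tnfrsf18 (0 genes), which are direct neighbours. Cd28 and Icos lie on chromosome 1 with 1 protein-coding gene, Ctla4, between them, and Cd27 lies on chromosome 6. The deposited identifiers carry no named build, so positions are given only for the RefSeq sequences printed here. The 250 bases before the most upstream listed start were read for the 6 members in the RefSeq promoter table, and 3 of them are shown, each 5′ to 3′ on the strand of its gene. Tnfrsf9 (plus strand, chr4:150919905-150920154) and Tnfrsf1b (minus strand, chr4:145246871-145247120) are shown because they were the TNF receptor genes that differed between the Treg subsets. Tnfrsf25 (plus strand, chr4:152115684-152115933) is shown because it alone of the 6 held a match to a searched motif, and its match is in capitals.
Tnfrsf9: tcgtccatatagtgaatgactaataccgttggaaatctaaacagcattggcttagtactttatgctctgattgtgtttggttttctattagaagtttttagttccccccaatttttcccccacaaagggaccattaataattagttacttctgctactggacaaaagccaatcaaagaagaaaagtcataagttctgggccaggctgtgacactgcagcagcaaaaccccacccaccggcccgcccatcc
Tnfrsf1b: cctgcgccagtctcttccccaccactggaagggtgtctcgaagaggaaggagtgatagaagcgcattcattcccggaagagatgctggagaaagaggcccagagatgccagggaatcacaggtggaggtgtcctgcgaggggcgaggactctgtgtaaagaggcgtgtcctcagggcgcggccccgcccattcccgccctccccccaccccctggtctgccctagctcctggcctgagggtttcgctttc
Tnfrsf25: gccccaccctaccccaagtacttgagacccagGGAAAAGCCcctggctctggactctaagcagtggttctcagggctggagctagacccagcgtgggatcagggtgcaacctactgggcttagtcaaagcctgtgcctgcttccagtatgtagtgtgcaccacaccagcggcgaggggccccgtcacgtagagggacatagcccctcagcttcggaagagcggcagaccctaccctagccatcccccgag
The letters searched on both strands were GGNNNTTCC, a form of the NF-kB motif, and TGANTCA, the AP-1 motif. The first was found before 1 of the 6 genes and in 15.7% of all 32851 promoter windows of the same length. The second was found before 0 of the 6 and in 6.75% of all windows. A match is a string of letters and not a measured site.

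Some facts of the arrays touch every comparison. Atg14, the targeted gene, was not lower on the arrays labelled KO: its log2 signal was 9.004 to 9.316 in KO eTregs against 8.64 to 9.01 in control eTregs, and 9.24 to 9.33 in KO cTregs against 8.64 to 9.26 in control cTregs. Where the probes of Atg14 lie relative to the flanked DNA is not given in the sources used here, so the arrays are described as labelled KO. By quantitative PCR, the study reported deletion of Atg14 in Tregs sorted from Foxp3-Cre Atg14 fl/fl mice. That measurement was made in the mice themselves and not in the chimeras of these arrays. Of the Treg markers, Foxp3 lay between 12.7 and 13.1 on all 14 arrays, Cd4 between 12.5 and 12.7 and Cd3e between 13.1 and 13.3. Il2ra, which encodes the CD25 chain of the interleukin-2 receptor, was low for Tregs at 6.94 to 8.44, where background control probes had medians of 6.00 to 6.30. The sort was visible in Cd44, which was 9.14 to 9.86 in cTregs and 10.60 to 11.52 in eTregs.

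The array KO eTreg 1 stood apart from the other eTreg arrays. Its Cd44 signal of 10.60 was the lowest of the 7 eTreg arrays, and on the first principal component (34.5% of the variance) it lay at -4.30, below the control eTregs at 5.26 to 21.9 and KO eTreg 2 and 3 at 39.9 and 39.5. KO eTreg 2 and 3 stood apart in another way. The mean log2 signal of 12 monocyte and macrophage markers was 10.7 and 10.6 on these arrays, 8.48 on KO eTreg 1, 8.73 to 9.16 in control eTregs, 8.26 to 8.33 in KO cTregs and 8.05 to 8.21 in control cTregs. The mean of 10 dendritic cell markers was 9.16 and 9.39 on KO eTreg 2 and 3 and at most 8.56 on the other arrays. Such means hide single markers. Of the dendritic cell markers, Siglech averaged 10.41 (SD 0.55) in KO eTregs and 8.63 (SD 0.21) in control eTregs. Klrb1c, an NK cell marker, was 8.49 in KO eTregs, 8.06 in control eTregs, 5.82 in KO cTregs and 5.87 in control cTregs. Prf1 was lower in eTregs, and the erythroid Hbb-bt ran from 9.97 in KO cTregs to 11.42 in control eTregs. Of the 12 macrophage markers, 9 differed by over 1 between the highest and the lowest group mean, with Mrc1 the most variable, and none lay within 1 of the background in eTregs (0 of 12), whereas 1, Mrc1, did in cTregs. The sort gated on CD4 and Foxp3-YFP, and whether other cells were among the sorted ones was not tested. Macrophages are known to express Tnfrsf1b, Cd80 and Cd86, and whether cells of this kind added to any receptor's signal was not tested.

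Among the 8 receptors, the clearest difference was between the subsets of control Tregs. Icos, Tnfrsf1b and Tnfrsf9 rose in eTregs, by 3.22-fold, 1.94-fold and 1.75-fold, and the remaining 5 genes did not pass the test. A transcript cluster was called where the absolute log2 difference was 0.5 or more and the P value of the linear model (limma), adjusted by Benjamini-Hochberg over all transcript clusters, was below 0.05. By this rule 3 of 8 members were called, all 3 higher, against 3.06% of all transcript clusters. As the members were chosen with earlier results of these data known, this count is not a test of the group. The arrays of both subsets did not overlap for 4 of 8 members, against 11.1% of all. The median log2 difference of the 8 members was 0.30, and that of all transcript clusters was 0.0026.

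**Figure D1:**
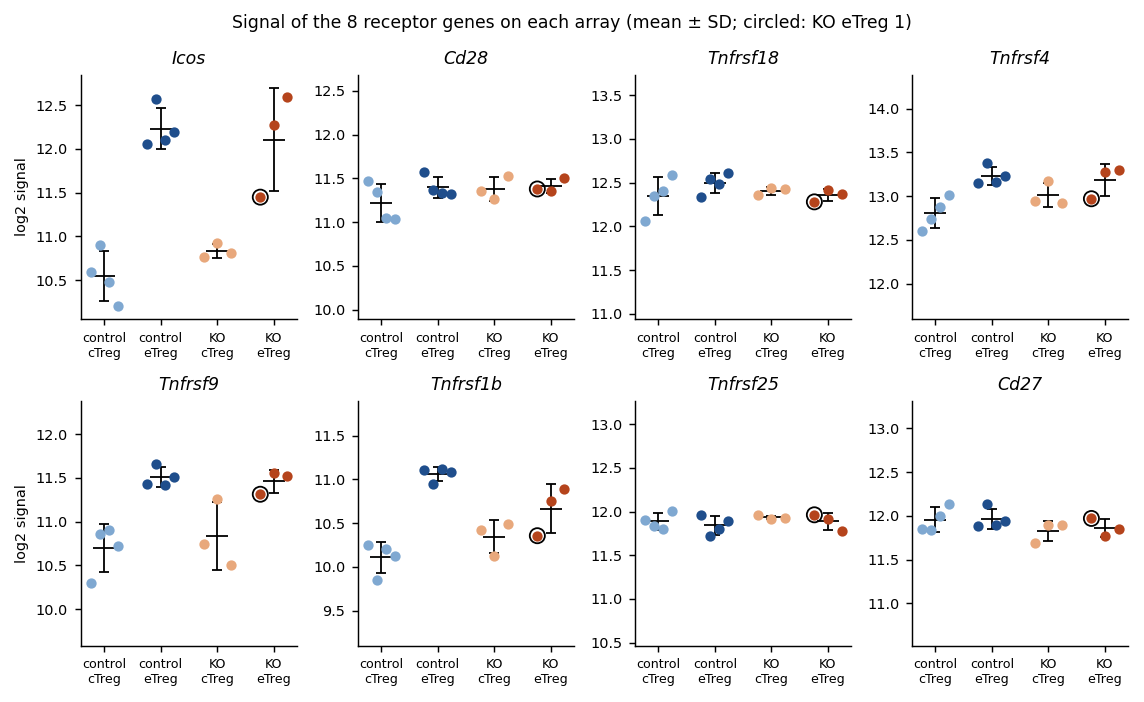
Log2 signal of each of the 8 receptor genes (vertical axis, of the same height in every panel) on the 14 arrays, by group, with the mean and SD as black lines and KO eTreg 1 circled. Icos separates the subsets most, from 10.2 to 10.9 in control cTregs to 12.1 to 12.6 in control eTregs, while Cd28, Tnfrsf18, Tnfrsf25 and Cd27 stay within a narrow band.

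Icos, the inducible costimulator that binds ICOS ligand, had log2 signals of 10.59, 10.90, 10.48 and 10.20 on the control cTreg arrays and of 12.06, 12.57, 12.10 and 12.19 on the control eTreg arrays. Every eTreg array lay more than 1 log2 unit above every cTreg array. The means were 10.54 ± 0.29 and 12.23 ± 0.23 (SD, n = 4 each), and the difference of 1.69 (95% interval 1.26 to 2.12, adjusted P = 0.00013) ranked 66 of 22203 among rises. In the KO groups, Icos was 10.77, 10.92 and 10.81 in cTregs and 11.45, 12.28 and 12.59 in eTregs. The subsets again did not overlap, but the KO eTreg arrays spread more widely, with KO eTreg 1 the lowest. Icos was the only member called there, with a log2 difference of 1.27 (95% interval 0.77 to 1.77, adjusted P = 0.0075), which was 1.60 without KO eTreg 1 (adjusted P = 3.4e-05). A fit of the KO arrays alone gave the same difference with an adjusted P of 0.067.

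Cd28, the receptor for CD80 and CD86 on antigen-presenting cells, did not separate the subsets. Its log2 signal was 11.04 to 11.47 in control cTregs and 11.32 to 11.57 in control eTregs, so that the arrays overlapped. The difference was 0.17 (95% interval -0.069 to 0.41, adjusted P = 0.64) in controls and 0.032 (95% interval -0.25 to 0.31, adjusted P = 0.95) on the arrays labelled KO.

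Of the TNF receptor genes, Tnfrsf1b, which encodes TNFR2, a receptor for TNF, differed most between the control subsets. Its log2 signals were 10.25, 9.85, 10.20 and 10.12 in control cTregs and 11.11, 10.95, 11.12 and 11.09 in control eTregs. The control eTreg arrays lay close together and above every cTreg array, with means of 10.11 ± 0.18 and 11.07 ± 0.080 (SD, n = 4 each). The difference was 0.96 (95% interval 0.69 to 1.23, adjusted P = 0.00031). Among the arrays labelled KO, Tnfrsf1b was 10.43, 10.13 and 10.49 in cTregs and 10.36, 10.75 and 10.89 in eTregs, and the subsets overlapped because KO eTreg 1 lay inside the range of the cTregs. The difference there was 0.32 (95% interval 0.0034 to 0.63, adjusted P = 0.36), and 0.47 without KO eTreg 1 (adjusted P = 0.071). It was 0.28 without KO eTreg 2 and 0.21 without KO eTreg 3.

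Tnfrsf9, an activation-induced receptor for 4-1BB ligand, was 10.30, 10.86, 10.91 and 10.73 in control cTregs and 11.43, 11.67, 11.42 and 11.51 in control eTregs. No array overlapped, and the difference was 0.81 (95% interval 0.48 to 1.15, adjusted P = 0.0064). It was 10.75, 11.26 and 10.50 in cTregs labelled KO and 11.31, 11.56 and 11.52 in eTregs labelled KO. These also did not overlap, though KO eTreg 1 lay only just above KO cTreg 2, and the difference of 0.63 (95% interval 0.24 to 1.01) had an adjusted P of 0.091. Without KO cTreg 2 it was 0.84 and passed (adjusted P = 0.020), and leaving out any other array gave 0.46 to 0.70 and did not pass, with adjusted P values of 0.053 to 0.28, the smallest difference being without KO cTreg 3.

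Tnfrsf4, whose product OX40 binds OX40 ligand, was 12.60, 12.74, 12.87 and 13.01 in control cTregs and 13.15, 13.38, 13.16 and 13.23 in control eTregs. The arrays did not overlap, but the difference of 0.42 (95% interval 0.18 to 0.67) had an adjusted P of 0.053 and was under the size asked for. Between the subsets labelled KO the difference was 0.17 (95% interval -0.11 to 0.45, adjusted P = 0.62), and these overlapped. Its neighbour on the chromosome, Tnfrsf18, which encodes GITR, was 12.06 to 12.58 in control cTregs and 12.34 to 12.61 in control eTregs. Its subset difference was 0.14 (95% interval -0.087 to 0.38, adjusted P = 0.72) in controls and -0.053 (95% interval -0.32 to 0.21, adjusted P = 0.91) on the arrays labelled KO.

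Tnfrsf25, the receptor for TL1A, and Cd27, the receptor for CD70, showed the smallest differences between the control subsets. Tnfrsf25 was 11.80 to 12.01 in control cTregs and 11.72 to 11.96 in control eTregs, and its difference was -0.045 (95% interval -0.24 to 0.15, adjusted P = 0.94). Cd27 was 11.83 to 12.14 in control cTregs and 11.89 to 12.14 in control eTregs, and its difference was 0.0078 (95% interval -0.21 to 0.22, adjusted P = 0.99). For both genes the intervals leave out a change of the size asked for in either direction. The differences on the arrays labelled KO were -0.047 (95% interval -0.27 to 0.17) for Tnfrsf25 and 0.039 (95% interval -0.21 to 0.29) for Cd27.

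**Figure D2:**
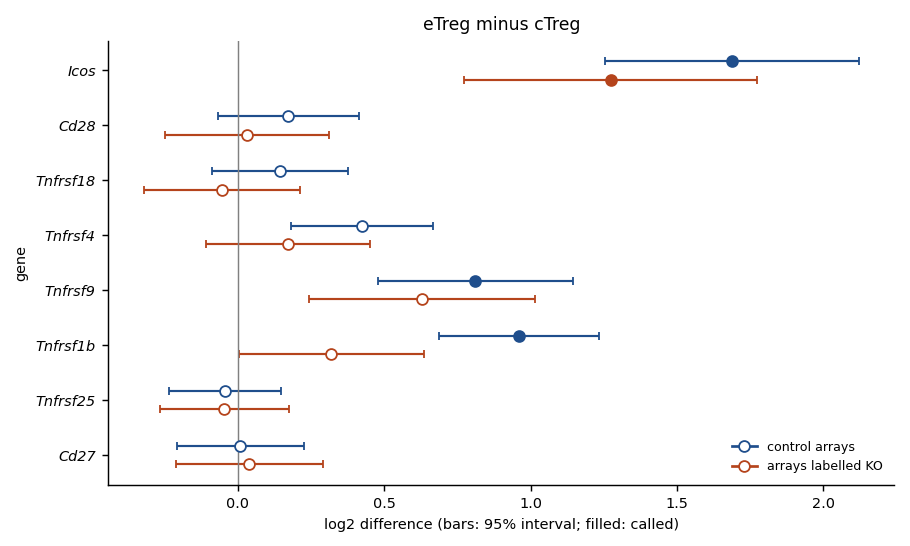
Log2 difference, eTreg minus cTreg (horizontal axis), of each receptor gene (vertical axis) in control arrays (blue) and arrays labelled KO (orange), with 95% intervals; filled points were called. Icos was called in both, with 1.69 and 1.27. Tnfrsf1b and Tnfrsf9 were called in the control arrays, at 0.96 and 0.81. On the arrays labelled KO they were 0.32 and 0.63 and not called. The difference between the genotypes, tested by itself, was called for neither.

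On the arrays labelled KO, 1 of 8 members was thus called between the subsets, against 2.35% of all transcript clusters, and the arrays did not overlap for 2 of 8, against 14% of all. The median difference of the members was 0.11, and that of all transcript clusters -0.044. As the KO groups hold 3 arrays each and the control groups 4, the counts of both genotypes are not read against each other, and the difference between them was tested by itself.

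The direct comparison of genotypes set the arrays labelled KO against the controls within each subset, with the limit that Atg14 itself was not lower on them. In eTregs, 0 of 8 members were called, against 0.117% of all transcript clusters. With an unadjusted P below 0.05 and the same size, which the study's methods name beside the adjusted P, 0 of 8 were called as well, against 2.72% of all. Tnfrsf1b alone had an unadjusted P below 0.05 (1 of 8, or 12.5%, against 8.03% of all transcript clusters) and was the only member whose arrays did not overlap, against 6.85% of all transcript clusters. Its signal was 10.36 to 10.89 in eTregs labelled KO and 10.95 to 11.12 in control eTregs. The difference was -0.40 (95% interval -0.70 to -0.11, adjusted P = 0.39). The difference was -0.25 without KO eTreg 1 (adjusted P = 0.46), -0.44 without KO eTreg 2 and -0.51 without KO eTreg 3. Under 23 alternative settings it kept its sign, from -0.51 to -0.25, and was not called. Leaving out KO eTreg 1, 0 of 8 members and 2.04% of all transcript clusters were called. In bulk samples, fewer cells that express a gene and less RNA per cell cannot be told apart.

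For the remaining members, the eTregs labelled KO and the control eTregs overlapped. Icos differed by -0.13 (95% interval -0.59 to 0.34, adjusted P = 0.94), and by 0.20 without KO eTreg 1 (adjusted P = 0.65), so that its sign rested on that array. Tnfrsf9 and Tnfrsf4 also lay on both sides of 0, with differences of -0.045 and -0.049 on all arrays and of 0.030 and 0.057 without KO eTreg 1. Tnfrsf18 differed by -0.14 (95% interval -0.39 to 0.11), Cd27 by -0.099 (95% interval -0.33 to 0.13), Tnfrsf25 by 0.045 (95% interval -0.16 to 0.25) and Cd28 by 0.017 (95% interval -0.24 to 0.28). The median difference was -0.074 over the 8 members and -0.022 over all transcript clusters.

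In cTregs, 0 of 8 members were called, against 0.045% of all transcript clusters, and 0 of 8 by the unadjusted threshold, against 0.576% of all. The arrays of both genotypes overlapped for every member (0 of 8 without overlap, against 5.05% of all transcript clusters). Differences ran from -0.13 for Cd27 to 0.29 for Icos, and that of Tnfrsf1b was 0.24 (95% interval -0.055 to 0.53). None had an unadjusted P below 0.05 (0 of 8, against 4.01% of all transcript clusters). Of the 8 members 7 were higher in cTregs labelled KO, with a median difference of 0.15, where that of all transcript clusters was 0.016.

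**Figure D3:**
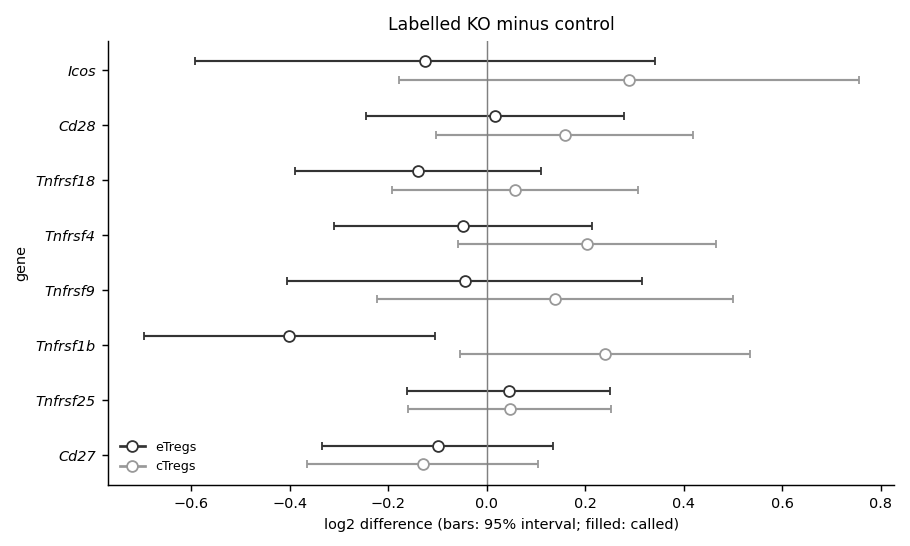
Log2 difference, labelled KO minus control (horizontal axis), of each receptor gene (vertical axis) in eTregs (dark) and cTregs (light), with 95% intervals; open points were not called. No member was called, and in eTregs Tnfrsf1b, at -0.40, is the only one whose interval leaves out 0.

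The interaction, the genotype difference in eTregs minus that in cTregs, tested whether the subset difference itself depended on the genotype. It called 0 of 8 members, against 0% of all transcript clusters (0 of 22203, with 1358 at an unadjusted P below 0.05). By the unadjusted threshold 1 of 8 members passed, against 3.05% of all. This was Tnfrsf1b, at -0.64 (95% interval -1.06 to -0.22, adjusted P = 0.73). It was -0.49 without KO eTreg 1 (adjusted P = 0.35), -0.68 without KO eTreg 2 and -0.75 without KO eTreg 3. Without KO eTreg 1 the interaction called 0 of 8 members and 0.932% of all transcript clusters. The values of the other members were -0.41 (95% interval -1.08 to 0.25) for Icos, -0.25 (95% interval -0.62 to 0.12) for Tnfrsf4 and between -0.20 and 0.031 for the rest. The members' median was -0.19, and that of all transcript clusters -0.034.

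Ordered by mean, Tnfrsf1b thus stood at 11.07 in control eTregs, 10.67 in eTregs labelled KO, 10.35 in cTregs labelled KO and 10.11 in control cTregs. None of the neighbouring groups in that order differed by the adjusted test, and only the first pair did not overlap. Beside it, the mean of the monocyte and macrophage markers was 8.48, 10.7 and 10.6 on KO eTreg 1, 2 and 3. There Tnfrsf1b was 10.36, 10.75 and 10.89, so that within these 3 arrays both were lowest on KO eTreg 1. This was not particular to Tnfrsf1b, as Icos, Tnfrsf9, Tnfrsf4 and Tnfrsf18 were also lowest on KO eTreg 1. Of the remaining members, Tnfrsf25 and Cd27 were highest on that array and Cd28 lay between the others. In control eTregs the markers were at 8.73 to 9.16 and Tnfrsf1b at 10.95 to 11.12, and in all cTregs the markers were at 8.05 to 8.33 and Tnfrsf1b at 9.85 to 10.49. Whether monocytes or macrophages had a part in the Tnfrsf1b signal was not tested.

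**Figure D4:**
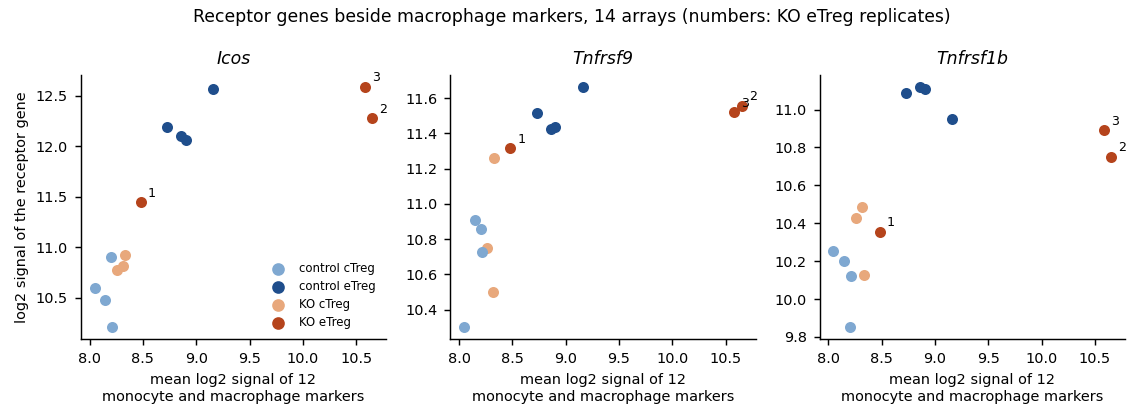
Log2 signal of Icos, Tnfrsf9 and Tnfrsf1b (vertical axes) against the mean log2 signal of 12 monocyte and macrophage markers (horizontal axes) on the 14 arrays, coloured by group, with the KO eTreg arrays numbered. KO eTreg 2 and 3 lie far to the right, at 10.7 and 10.6, with Tnfrsf1b at 10.75 and 10.89, above KO eTreg 1 at 10.36 and below the control eTregs at 10.95 to 11.12.

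The genes around these receptors were read from 6 lists, of whose 97 genes 95 were matched. The lists, too, were chosen with earlier results known, so their counts are not a test of a group. Between the control subsets 8 of 95 (8.42%) were called, all 8 higher in eTregs, against 3.06% of all transcript clusters. In the CD28 family and its ligands, 3 of 6 genes rose. Pdcd1, which encodes the inhibitory receptor PD-1, differed by 1.93 (adjusted P = 4.0e-06), Cd80, a ligand of CD28 and CTLA-4, by 1.61 (adjusted P = 0.00045) and Ctla4, the inhibitory competitor of CD28 that lies between Cd28 and Icos, by 0.58 (adjusted P = 0.017). The calls of Pdcd1 and Cd80 were kept under all 22 alternative settings, and that of Ctla4 was lost under 4, without control cTreg 2 or control eTreg 2, 3 or 4 (adjusted P = 0.051 to 0.070). Cd80 was 8.60 to 9.08 in control cTregs and 10.2 to 10.8 in control eTregs. Icosl, the ligand of ICOS, was 9.16 to 9.66 in control cTregs and 9.43 to 9.70 in control eTregs and was not called.

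Of the other TNF receptor genes, 2 of 21 rose in control eTregs. These were Tnfrsf8, which encodes CD30, at 0.67 (adjusted P = 0.035) and Tnfrsf23, a decoy receptor for TRAIL, at 0.55 (adjusted P = 0.010). The call of Tnfrsf8 was lost under 7 of 22 settings, with adjusted P values of up to 0.12, among them leaving out any 1 of control cTreg 2, 3 and 4 and control eTreg 2, 3 and 4. That of Tnfrsf23 was lost under 3 of 21, with array weights and without control cTreg 1 or control eTreg 2. Of 16 measured TNF family ligands 3 rose: Tnfsf11 (RANK ligand) by 0.52, Tnfsf14 (LIGHT) by 0.52 and Tnfsf9 (4-1BB ligand, the partner of Tnfrsf9) by 0.50, with adjusted P values of 0.0097, 0.013 and 0.010. These differences lay just above the size asked for, and the calls were lost under 5 of 22, 5 of 22 and 4 of 21 settings, where the differences were 0.46 to 0.50. The ligands of the other members, Tnfsf4 (OX40 ligand), Tnfsf18 (GITR ligand), Cd70 and Tnfsf15 (TL1A), were not called. The counts were 0 of 18 for TRAF adaptors and partners, 0 of 16 for NF-kB subunits and regulators and 0 of 18 for CD28 and ICOS proximal signalling. At the 3.06% called among all transcript clusters, lists of this size would hold few calls, so nothing is read from these counts. Malt1, a protease of the CD28 to NF-kB route, had an adjusted P of 0.022 in controls but a difference of 0.44, under the size asked for.

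On the arrays labelled KO, 3 of 95 genes (3.16%) were called between the subsets, close to the 2.35% of all transcript clusters. Pdcd1 rose by 1.72 (adjusted P = 8.4e-05) and Cd80 by 1.22 (adjusted P = 0.019), while Tnfrsf12a, the receptor for TWEAK, fell by 0.58 (adjusted P = 0.033). The call of Cd80 was lost under 4 of 22 settings (adjusted P = 0.063 to 0.12), in the fit of the 2 groups alone and when KO cTreg 1, KO eTreg 3 or KO cTreg 3 was left out. That of Tnfrsf12a was lost under these and without KO eTreg 2 (adjusted P = 0.097 to 0.24). Without KO eTreg 1, 7 of 95 were called, with 5.57% of all transcript clusters. Between the genotypes 0 of 95 genes were called in cTregs, against 0.045% of all transcript clusters. An unadjusted P below 0.05 was found there for 3 (3.16%), against 4.01% of all. By the interaction 0 of 95 were called, against 0% of all. Tnfsf9 and Tnfrsf23 (2 of 95, or 2.11%) had an unadjusted P below 0.05 in it, against 6.12% of all.

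Between the genotypes in eTregs 1 of 95 (1.05%) was called, against 0.117% of all transcript clusters, and that gene was Tnfsf9. Its log2 signals were 7.52, 7.50 and 7.64 in eTregs labelled KO and 8.11, 8.40, 8.24 and 8.25 in control eTregs. All 3 arrays labelled KO lay below all 4 control arrays, and near the cTregs, which were at 7.64 to 7.80 in controls and 7.59 to 8.02 on the arrays labelled KO. The difference was -0.70 (adjusted P = 0.026). All of these signals were among the lower ones of the arrays, whose medians were 8.77 to 8.90. In cTregs the genotypes differed by 0.020 (adjusted P = 1.00), and the interaction of -0.72 did not pass the test (adjusted P = 0.53). The call was kept under 14 of 22 alternative settings and lost under 8, with adjusted P values of 0.0051 to 0.11 and differences of -0.74 to -0.65. It was lost without any 1 of the arrays KO eTreg 2 (adjusted P = 0.11), KO eTreg 3 (adjusted P = 0.056), control eTreg 2 (adjusted P = 0.069), control eTreg 3 (adjusted P = 0.074) and control eTreg 4 (adjusted P = 0.071).

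**Figure D5:**
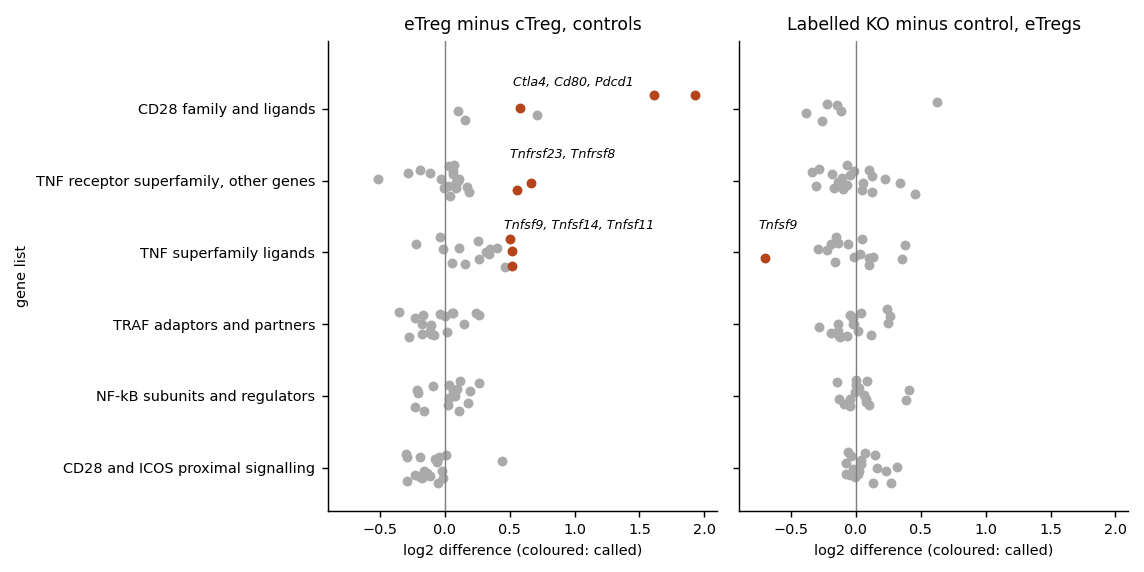
Log2 difference (horizontal axes) of each gene of 6 lists around the receptors (rows), between eTregs and cTregs of controls (left) and between labelled KO and control eTregs (right); called genes are coloured and named. All 8 called genes of the left panel are receptors or ligands and lie above 0, and the single called gene of the right panel is Tnfsf9, at -0.70.

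Over the 14 arrays, each receptor had its own nearest genes, taken as the 3 highest Pearson correlations among 13314 transcript clusters. These correlations describe arrays that share their groups, so they carry no test. The genes most like Icos were Nfil3 (r = 0.98), Gzmb (r = 0.97) and Ptgfrn (r = 0.97). Those most like Tnfrsf9 were Ybx3, Fcrl1 and Nrn1 (each r = 0.95), and those most like Tnfrsf1b were Eea1 (r = 0.94), Cd83 (r = 0.92) and Vsig10l (r = 0.91). With the group means removed, Eea1 had r = 0.93 with Tnfrsf1b and Nfil3 had r = 0.86 with Icos, whereas Cd83 had r = 0.35 with Tnfrsf1b. The genes were picked on these same arrays, so these values are no separate evidence.

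Tnfrsf4 was most like Hist1h3h (r = 0.94), Itm2c (r = 0.93) and Areg (r = 0.93). For the members that did not separate the subsets the highest values were 0.84 (Cd28 with Eif2ak2), 0.91 (Tnfrsf18 with Tmem218), 0.85 (Tnfrsf25 with Ift46) and 0.90 (Cd27 with Zfp28). Among the members themselves, with group means removed, the neighbours Tnfrsf4 and Tnfrsf18 had r = 0.77 and Tnfrsf4 and Tnfrsf9 r = 0.74, while Cd28 and Tnfrsf18 had r = -0.75. The groups accounted for 87.9% of the variance of Icos, 85.5% of that of Tnfrsf1b and 76.2% of that of Tnfrsf9 over the arrays, and for 15.8% of that of Tnfrsf25. Between arrays of a group, Icos was more variable than most genes, at the percentile 93.4 of the SDs of all transcript clusters. Its SD was 0.59 in eTregs labelled KO, where KO eTreg 1 was the lowest array, and 0.078 to 0.29 in the other groups. Tnfrsf25 was among the least variable, at the percentile 3.03.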

How the data were processed

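Clariom S mouse arrays, 14 in all, measured RNA of sorted Tregs. The values deposited by the authors are log2 signals, which they summarised by robust multi-array average in Affymetrix Expression Console 1.1. This method corrects the background, quantile normalises probes and sets all arrays to 1 distribution, so that a shift common to most genes would be removed. Of 28846 entries, 6640 control entries and 3 without a symbol were left out, and 22203 transcript clusters were tested with no filter on signal. A model of 4 group means was fitted with limma 3.58.1 in R 4.3.3 (10 residual and 5.65 prior degrees of freedom). P values are two-sided. The script was tested on simulated data. The members and gene lists were chosen with earlier results of these data known, so no P value is adjusted over a list alone. Named genes are the 8 members, every list gene called in the comparison described, sort and label genes, and the 3 genes most like each member, and Cd86, Icosl, Malt1, Tnfrsf21 and the members' ligands were named after their values were seen. Alternatives were other scalings, a filter at the percentile 40, array weights, trended variances, fits of the groups compared alone, replicate blocks, the unadjusted threshold and leaving out each array. Array scans were not used here, and 1 sort gene is not reported here. The number of arrays limits the precision. Figures were drawn with matplotlib 3.10.9.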

Additional observations from a re-analysis of the deposited data

How the results depend on the processing

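The 3 members called between the control subsets (Icos, Tnfrsf1b and Tnfrsf9) were called under all 22 alternative settings, with log2 differences of 1.57 to 1.81, 0.87 to 1.01 and 0.68 to 0.88. No alternative called a member between the genotypes in eTregs or cTregs. Each member has 1 transcript cluster, so the choice of a row could not be varied.

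Among the list genes, the 8 calls between control subsets became 5 with array medians subtracted and 4 to 8 without 1 array. On the arrays labelled KO, the single member called became 0 in a fit of the 2 groups alone, 2 by the unadjusted threshold and 1 to 2 without 1 array, and the 3 list genes became 5 with array weights, 1 in the fit of 2 groups, 7 by the unadjusted threshold and 1 to 7 without 1 array. The 1 list gene called between genotypes in eTregs became 0 with array medians subtracted, with a second quantile normalisation and in the fit of 2 groups. It also became 0 with the filter, which left Tnfsf9 out, so that the gene was not tested there. With array weights it became 2 (Tnfsf9 and Tnfrsf21), and without 1 array 0 to 2. By the unadjusted threshold the interaction went from 0 to 1 member and from 0 to 2 list genes. Over all transcript clusters, the 26 calls between genotypes in eTregs became 435 with array weights, 17 with the filter and 10 in the fit of 2 groups. Without 1 array they were 10 to 452 (452 without KO eTreg 1). The 522 between the subsets labelled KO became 961 with array weights and 133 in the fit of 2 groups. Without 1 array they were 219 to 1236 (1236 without KO eTreg 1). The 10 between genotypes in cTregs became 3 to 10 without 1 array. They became 6 with a block of the replicate number alone, which joins KO and control arrays of the same number. With a block of genotype and number together they became 8. The 0 of the interaction became 3 with array weights and 0 to 207 without 1 array. The cause of these moves was not tested.

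Uncalled differences near 0 changed sign. Cd27 between control subsets was -0.039 with array medians, -0.000001 with array weights and -0.050 to 0.069 without 1 array, on the arrays labelled KO -0.019 with array weights and -0.029 to 0.087 without 1 array, and in the interaction -0.0072 with 75th percentiles subtracted, -0.013 with quantiles, -0.019 with array weights and -0.037 to 0.088 without 1 array. Cd28 on the arrays labelled KO was -0.000018 with 75th percentiles and -0.027 to 0.11 without 1 array. Between genotypes in eTregs, Cd28 was -0.0025 with 75th percentiles, -0.019 with quantiles and -0.028 to 0.074 without 1 array. It was -0.027 with the block of the number alone and 0.017 with the block of genotype and number together. Between genotypes in eTregs, Icos was 0.11 and Tnfrsf4 0.013 with array weights, and without 1 array Icos was -0.37 to 0.20, Tnfrsf4 -0.11 to 0.057 and Tnfrsf9 -0.091 to 0.030. Without 1 array, Tnfrsf18 and Tnfrsf9 between genotypes in cTregs were -0.039 to 0.13 and -0.073 to 0.31, Tnfrsf25 on the arrays labelled KO -0.085 to 0.0058, and in the interaction Tnfrsf9 -0.35 to 0.028 and Tnfrsf25 -0.043 to 0.051, the last being 0.030 with array medians.

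Same-numbered cTreg and eTreg arrays of a genotype had residual correlations of 0.044 to 0.30, over 0.1 in 5 of 7 pairs and highest with their own number in 6 of 7. The study names the same numbers of chimeras for both subsets, but no source used here ties a number to an animal, and 2 of the 7 pairs were under 0.1, so whether the numbers mark animals is not settled and the main values carry no block. With a block of genotype and number together, 5 list genes were called between the subsets labelled KO in place of 3. Between the control subsets the call of Tnfrsf8 was lost (adjusted P = 0.11) and Cd86 was called, so that the count stayed at 8. No call of a member changed.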
